A study of Mus musculus with 8 samples.

Results

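RNA-Seq was used to follow cytokine transcripts in BMDMs (bone marrow-derived macrophages), cells grown from mouse marrow for 7 days in medium conditioned by L929 cells. The genes described here are 10 macrophage cytokine genes, Tnf, Il1a, Il1b, Il1rn, Il6, Il10, Il12b, Il15, Il18 and Il27. They were chosen by name with earlier results of these data known, as were the lists and markers below. Counts of such genes beside shares of all genes are therefore descriptions only. Each gene matched 1 Ensembl identifier among the 54532 genes of the count tables. The 8 libraries formed 4 groups of 2. WT BMDMs came from wild-type mice of 6 to 8 weeks and received the vehicle DMSO. The other 3 groups were BMDMs from Trex1-/- mice of the same age range, which lack the exonuclease TREX1 in every cell, and received DMSO (Trex1-KO), the STING antagonist H151 at 500 nM (Trex1-KO+H151) or the STING antagonist SN-011 (Trex1-KO+SN-011). All cells were incubated for 12 h. A dose of SN-011 is not in the labels, and the methods of the study state the same dose and time for both antagonists. According to the methods, wild-type animals were purchased and Trex1-/- animals were bred from heterozygous matings, so genotype and the source of the animals cannot be told apart. No group of WT cells received an antagonist. The record numbers of the SN-011 libraries stand apart from those of the WT, Trex1-KO and H151 libraries, which are consecutive. The labels do not say whether SN-011 cells were grown and sequenced with the others. A difference in handling therefore cannot be told apart from SN-011. The labels do not say whether the 2 libraries of a group came from separate animals or cultures. The study describes its replicates as 2 independent experiments without saying which library belongs to which, and p-values measure the spread between these libraries only.

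TREX1 degrades DNA in the cytosol. Without it, self DNA can activate the sensor cGAS, which makes the messenger cGAMP, and cGAMP activates STING. STING engages the kinase TBK1 and the transcription factor IRF3, which drive interferon genes, and it also feeds into NF-kappaB, the factor best known for driving Tnf, Il1a, Il1b, Il6 and Il12b in macrophages. TNF, IL-1alpha, IL-1beta, IL-6 and the IL-12 p40 subunit encoded by Il12b are pro-inflammatory. IL-1 receptor antagonist, encoded by Il1rn, blocks the receptor that both IL-1 proteins use. IL-10 restrains macrophage activation, and IL-27 p28, encoded by Il27, is a subunit of a cytokine that regulates T cells. IL-15 sustains NK and memory T cells, and IL-18 is kept as a precursor that caspase-1 cleaves, as is IL-1beta.

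The stretch just upstream of the transcription start is where these genes assemble their polymerase complex, and it is shown for Tnf, Il1a and Il1b, the genes called lower over both antagonists below, and for Il6, the one member with an NF-kappaB match. Windows of 250 bases upstream of annotated starts were taken from RefSeq (build GRCm38.p6) and were found for 7 of the 10 genes. These genes had 9 windows, 3 of them of Il1rn, so counts of genes and shares of windows are unlike units. Il10, Il15 and Il27 were not matched. In 3 of the 7 genes, Tnf, Il1a and Il1b, the sequence TATAAA lay on the gene's strand between 40 and 20 bases upstream of the start. This position was shared by 1.90% of 32536 windows of all genes. Il1rn, Il6, Il12b and Il18 did not have it there. A link between this sequence and the antagonist differences was not tested. A match to the NF-kappaB motif, searched on both strands, was found in 1 of the 7 genes, Il6, against 3.92% of all windows. The interferon-stimulated response element, taken as GAAA, any 2 bases and GAAA again and searched on both strands, was found in 0 of the 7 genes and in 2.98% of all windows. A match is a description of the letters in a window and not a binding site. The last 100 bases before the start are printed 5′ to 3′ on the gene's strand, with TATAAA (Tnf, Il1a, Il1b) or the NF-kappaB match (Il6) in capitals.
Tnf: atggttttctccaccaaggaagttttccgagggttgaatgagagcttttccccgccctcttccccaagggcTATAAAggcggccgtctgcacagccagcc
Il1a: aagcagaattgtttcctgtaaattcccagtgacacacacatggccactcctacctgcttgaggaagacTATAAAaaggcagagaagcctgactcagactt
Il1b: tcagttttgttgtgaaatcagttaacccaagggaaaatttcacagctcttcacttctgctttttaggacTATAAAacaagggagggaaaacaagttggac
Il6: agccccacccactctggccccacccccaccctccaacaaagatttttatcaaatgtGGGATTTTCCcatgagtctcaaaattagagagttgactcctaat
These are chr17:35202008-35202107 (minus strand), chr2:129309973-129310072 (minus strand), chr2:129371140-129371239 (minus strand) and chr5:30013014-30013113 (plus strand). TATAAA ran from 29 to 24 bases upstream in Tnf, from 32 to 27 in Il1a and from 31 to 26 in Il1b, and the NF-kappaB match ran from 44 to 35 bases upstream in Il6.

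On GRCm38, Tnf (ENSMUSG00000024401) lies at 17:35199381-35202007, Il1a (ENSMUSG00000027399) at 2:129299610-129309972, Il1b (ENSMUSG00000027398) at 2:129364570-129371139 and Il1rn (ENSMUSG00000026981) at 2:24336853-24351494. Il6 (ENSMUSG00000025746) lies at 5:30013114-30019981, Il10 (ENSMUSG00000016529) at 1:131019845-131024974 and Il12b (ENSMUSG00000004296) at 11:44400063-44414033. Il15 (ENSMUSG00000031712) lies at 8:82331632-82403222, Il18 (ENSMUSG00000039217) at 9:50554827-50581840 and Il27 (ENSMUSG00000044701) at 7:126589010-126594941. All 10 are protein-coding, and counts are over their exons. Of the exonic length, 11.2% of Il1a is shared with the opposite-strand gene Gm14023, 10.1% of Il27 with the opposite-strand gene Apobr and 1.31% of Il1b with the opposite-strand gene Il1bos. The methods of the study name a strand-specific library protocol. The strand setting of the counting is not given in the sources used here, so reads in those stretches are uncertain.

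Total counts ran from 11845470 to 17284863 per library, so that 1 count was worth 0.0579 to 0.0844 CPM, the count scaled to the size of its library. The 10 cytokine genes together took only 0.0102% to 0.0146% of a library's counts. Trex1 was listed at 0 counts in all 8 libraries, WT included. Its whole exonic length (100% of 1147 bases) is shared with Atrip on the same strand, so its count cannot check the genotype labels. Of 12 interferon response genes, 12 rose in Trex1-KO against WT, against 9.27% of all genes tested (edgeR quasi-likelihood test, false discovery rate under 0.05). That list was chosen with earlier results of these data known, so its count is not an independent check of the labels. Summed macrophage markers were alike in all libraries, from 30092 to 32363 CPM. Summed neutrophil markers were at 8.74 to 9.64 CPM in WT and 64.8 to 98.7 CPM in the 6 Trex1-/- libraries, with at least 3 counts for 5 of 9 markers in WT and for 8 or 9 of 9 elsewhere. S100a8, S100a9, Ngp and Ltf made up most of the sum, and the defining marker Ly6g had 0 counts in both WT libraries and at most 3 counts in any library. Summed fibroblast markers were at 2067 to 2263 CPM in WT and 845 to 1196 CPM in the Trex1-/- libraries, with all 4 markers detected in every library. The T cell list was carried by Cd4, which macrophages can express, and its sum was 33.4 to 34.4 CPM in WT and 18.4 to 21.9 CPM elsewhere. Dendritic cell, B cell, NK cell, mast cell and erythroid lists summed to at most 6.45 CPM. The mitochondrial share of counts was 1.69% and 1.66% in WT and 1.26% to 1.45% in the Trex1-/- libraries. This share and the neutrophil, fibroblast and T cell sums separated WT from all Trex1-/- groups. Their part in the differences from WT below was not tested. In bulk RNA, fewer cells of a type and less RNA per cell cannot be told apart. The WT libraries also differed from each other, with replicate 1 above replicate 2 for Tnf, Il1a, Il1b and the interferon-induced chemokine gene Cxcl10.

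**Figure D1:**
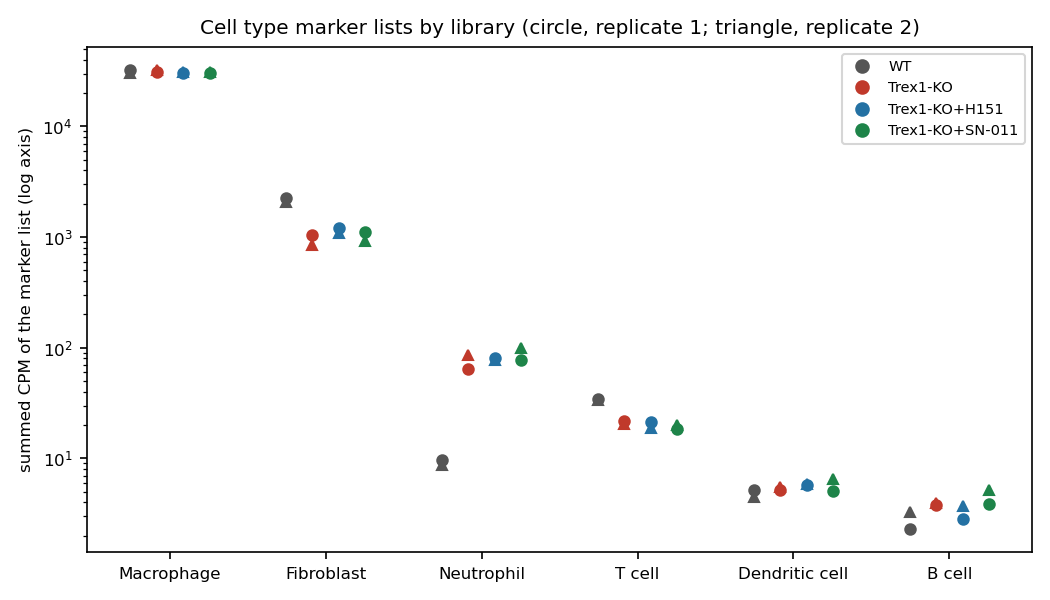
Summed CPM of marker lists for 6 cell types in each library, on a log axis; circles are replicate 1 and triangles replicate 2, coloured by group. Macrophage markers lie between 30092 and 32363 CPM in all 8 libraries, neutrophil markers lie lower and fibroblast markers higher in WT than in the other 3 groups.

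Levels of the genes were compared with each other only per kilobase of exon (RPKM). In Trex1-KO cells the order of the mean levels was Il15 (21.9 ± 0.913 RPKM, SD, n = 2), Il18 (21.4 ± 1.35), Tnf (10.6 ± 1.01), Il1b (8.71 ± 1.96), Il10 (5.50 ± 0.371), Il1rn (5.30 ± 0.756), Il27 (3.24 ± 1.38), Il1a (1.35 ± 0.0225), Il12b (0.194 ± 0.0574) and Il6 (0.151 ± 0.137). The neighbours Il15 and Il18, Tnf and Il1b, Il10 and Il1rn, and Il12b and Il6 had overlapping libraries, so their order is not resolved. In WT cells Il15 (15.3 ± 0.916 RPKM) and Il18 (15.1 ± 0.765) again stood highest, followed by Il1b (6.62 ± 3.03) and Il1rn (6.14 ± 0.845), and Tnf stood at 2.92 ± 2.03 RPKM. Both WT libraries had more Il15 and Il18 RPKM than either had of any other member, whereas Il6 and Il12b were barely detected in any group.

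**Figure D2:**
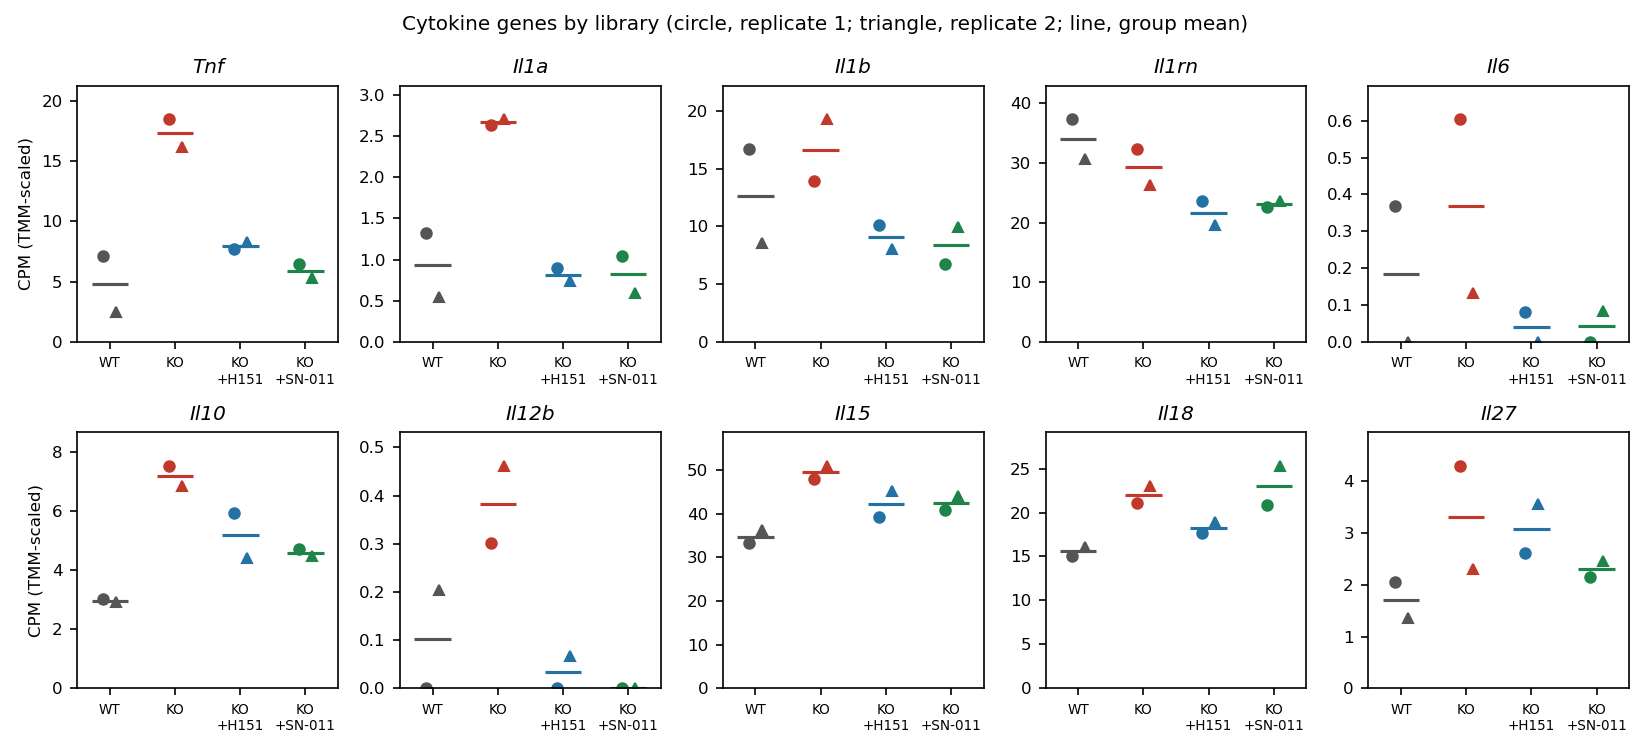
CPM of each of the 10 cytokine genes by library, with 1 panel per gene, a vertical axis that starts at 0 and differs between panels, and lines at the group means. Tnf, Il1a, Il10 and Il15 are highest in both Trex1-KO libraries, and Il6 and Il12b stay at or below 0.604 CPM in every library.

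The first comparison, Trex1-KO against WT, asks which cytokine transcripts differed when Trex1 was absent. Tnf, Il1a, Il10, Il15 and Il18 rose, 5 of the 8 genes that passed the filter on low counts, and none fell. Over all 14591 genes tested, 9.27% were called higher and 7.11% lower. The median log2 fold change of the 8 genes was 0.73, beside 0.00 over all genes tested. Without WT replicate 1 the count was 5 and without WT replicate 2 it was 3. Il6 and Il12b did not pass the filter.

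Tnf, the early pro-inflammatory cytokine, stood at 7.14 and 2.44 CPM in WT and at 18.5 and 16.2 CPM in Trex1-KO. Both Trex1-KO libraries lay above both WT libraries, which themselves differed by more than the Trex1-KO libraries did. The difference was 3.65-fold (log2 1.87 ± 0.30 SE, adjusted p = 0.000575), the largest among the 8 genes. It was called in each of 13 settings (the main analysis, 8 other ways of processing and 4 that leave out 1 library of the groups compared), with log2 values from 1.26 without WT replicate 2 to 2.81 without WT replicate 1.

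Il1a encodes IL-1alpha, a cytokine active without cleavage. It stood at 1.32 and 0.542 CPM in WT (18 and 8 counts) and at 2.64 and 2.70 CPM in Trex1-KO (35 and 41 counts). The groups did not overlap, and the rise was 2.88-fold (log2 1.53 ± 0.42, adjusted p = 0.0237). The call was less stable than that of Tnf. Leaving out WT replicate 2, Trex1-KO replicate 1 or Trex1-KO replicate 2 ended it, with log2 values of 1.00, 1.53 and 1.51, and DESeq2 did not call it (1.53).

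Il1b, which encodes the IL-1beta precursor, showed no such separation. Its levels were 16.7 and 8.54 CPM in WT and 13.96 and 19.3 CPM in Trex1-KO. WT replicate 1 lay between the 2 Trex1-KO libraries, and the difference did not pass (log2 0.41 ± 0.26, 95% interval -0.16 to 0.98, adjusted p = 0.359). The result turned on the WT library used. The log2 fold change was 0.95 and called without WT replicate 1, and -0.016 and not called without WT replicate 2.

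Il1rn, the antagonist of the IL-1 receptor, stood at 37.3 and 30.7 CPM in WT and at 32.3 and 26.4 CPM in Trex1-KO. The groups overlapped, and the difference did not pass (log2 -0.21 ± 0.13, 95% interval -0.49 to 0.06, adjusted p = 0.316). Unlike Tnf and Il1a, it gave a negative estimate, which was -0.083 without WT replicate 1 and -0.36 without WT replicate 2.

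Il10, the anti-inflammatory cytokine gene, had close replicates. It was at 3.02 and 2.91 CPM in WT and at 7.55 and 6.86 CPM in Trex1-KO. Both Trex1-KO libraries lay at more than 6 CPM and both WT libraries near 3 CPM. The rise was 2.42-fold (log2 1.28 ± 0.21, adjusted p = 0.000877) and was called in each of 13 settings, with leave-one-out log2 values of 1.20 to 1.35.

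Il27 was at 2.06 and 1.36 CPM in WT and at 4.30 and 2.31 CPM in Trex1-KO. The groups did not overlap, although the lower Trex1-KO library was close to the higher WT library. The log2 fold change of 0.94 ± 0.36 did not pass (adjusted p = 0.0980). Without Trex1-KO replicate 2, the lower library, it was 1.34 and called, and without Trex1-KO replicate 1 it was 0.43 and not called. Without WT replicate 1 or 2 it was 1.25 or 0.65, neither called.

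Il15 and Il18 had the smallest called differences and small spreads. Il15 stood at 33.2 and 36.1 CPM in WT and at 47.99 and 50.9 CPM in Trex1-KO. Both Trex1-KO libraries were above both WT libraries, by 1.43-fold (log2 0.51 ± 0.09, adjusted p = 0.00162), and the call held in each of 13 settings. Il18 stood at 15.02 and 16.1 CPM in WT and at 21.1 and 23.02 CPM in Trex1-KO. The groups again did not overlap, and the rise was 1.42-fold (log2 0.50 ± 0.12, adjusted p = 0.0127). The Il18 call was lost without WT replicate 1, without WT replicate 2 or without Trex1-KO replicate 2, at log2 values of 0.44, 0.54 and 0.43.

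Il6 and Il12b were near the limit of detection, where the floor of 3 counts equals 0.174 to 0.253 CPM. Il6 had 5 and 0 counts in WT, 8 and 2 in Trex1-KO, 1 and 0 with H151 and 0 and 1 with SN-011. Il12b had 0 and 3 counts in WT, 4 and 7 in Trex1-KO, 0 and 1 with H151 and 0 and 0 with SN-011, which allows up to 3 counts in each of those libraries. For both genes the highest count was in a Trex1-KO library. When the filter was lifted, neither gene was called in any comparison (adjusted p = 0.818 for Il6 and 0.690 for Il12b in Trex1-KO against WT), and a difference was not detectable at this depth.

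The second question was how the cytokine transcripts differed when Trex1-KO cells received a STING antagonist. H151 and SN-011 were each compared with the same 2 Trex1-KO libraries, so the comparisons are not independent. Among these 6 libraries the neutrophil marker sums overlapped between all groups, whereas the fibroblast sums ran from 1087 to 1196 CPM with H151, above the 845 to 1042 CPM of Trex1-KO. With SN-011 they ran from 916 to 1102 CPM, which overlapped Trex1-KO. Their part in the differences was not tested. With H151, 0 of the 8 genes were called by edgeR's quasi-likelihood test, against 2.23% of all genes tested (1.84% lower and 0.384% higher). At an unadjusted p under 0.05, 7 of the 8 passed, and DESeq2 called 1 gene and edgeR's exact test 2. With SN-011, 1 of the 8, Tnf, fell, against 2.33% of all genes called (2.22% lower and 0.11% higher). The median log2 fold change of the 8 genes was -0.46 with H151 and -0.58 with SN-011, beside 0.00 and 0.01 over all genes tested.

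Tnf stood at 7.74 and 8.26 CPM with H151 and at 6.46 and 5.27 CPM with SN-011. All 4 antagonist libraries were below both Trex1-KO libraries at 18.5 and 16.2 CPM. With SN-011 the level was 2.92-fold lower (log2 -1.54 ± 0.29, adjusted p = 0.00943). With H151 the log2 fold change of -1.11 ± 0.28 did not pass (adjusted p = 0.0659), although it was called in 5 of 13 settings. The SN-011 call was lost without either SN-011 library, at log2 values of -1.72 without replicate 1 and -1.42 without replicate 2.

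Il1a stood at 0.896 and 0.739 CPM with H151 and at 1.05 and 0.594 CPM with SN-011. All 4 libraries lay below 1.1 CPM and both Trex1-KO libraries above 2.6 CPM. The log2 fold changes of -1.71 ± 0.43 with H151 and -1.64 ± 0.43 with SN-011 were the largest among the 8 genes in either comparison, but neither passed (adjusted p = 0.0690 and 0.0702). They were called in 3 of 12 settings with H151 and in 4 of 13 with SN-011, and in none of the 4 that left out a library of the groups compared. Counts were 7 to 18 per antagonist library.

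Il1b stood at 10.1 and 8.06 CPM with H151 and at 6.75 and 9.94 CPM with SN-011. All 4 values were below the lower Trex1-KO library, at 13.96 CPM. The log2 fold changes of -0.88 ± 0.28 and -1.02 ± 0.28 did not pass (adjusted p = 0.185 and 0.0873). Il1rn stood at 23.6 and 19.6 CPM with H151 and at 22.6 and 23.7 CPM with SN-011, also below both Trex1-KO libraries. Its log2 fold changes were -0.44 ± 0.13 and -0.34 ± 0.13, and neither passed (adjusted p = 0.166 and 0.306).

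Il10 stood at 5.95 and 4.43 CPM with H151 and at 4.71 and 4.50 CPM with SN-011. These values lay between the WT and the Trex1-KO libraries. The log2 fold changes of -0.48 ± 0.20 and -0.64 ± 0.20 did not pass (adjusted p = 0.434 and 0.165). Il27 stood at 2.61 and 3.56 CPM with H151 and at 2.15 and 2.46 CPM with SN-011, which overlapped the Trex1-KO libraries. Its log2 fold changes were -0.07 ± 0.33 and -0.51 ± 0.34 (adjusted p = 0.989 and 0.592).

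Il15 stood at 39.2 and 45.1 CPM with H151 and at 40.7 and 44.1 CPM with SN-011. All 4 values were below both Trex1-KO libraries and above both WT libraries, and the log2 fold changes against Trex1-KO, -0.23 ± 0.09 with each antagonist, did not pass (adjusted p = 0.409 and 0.331). Il18 stood at 17.7 and 18.9 CPM with H151, below the Trex1-KO libraries, and at 20.8 and 25.3 CPM with SN-011, on either side of them. Its log2 fold changes were -0.27 ± 0.12 and 0.06 ± 0.12 (adjusted p = 0.519 and 0.901).

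Because both antagonists left most of these genes below Trex1-KO, the mean of the 4 antagonist libraries was also compared with the 2 Trex1-KO libraries, a contrast that was chosen after the values were seen. Tnf, Il1a and Il1b fell, 3 of the 8 genes, against 2.83% of all genes called (2.62% lower and 0.212% higher). The level was 2.51-fold lower for Tnf (log2 -1.33 ± 0.24, adjusted p = 0.00526), 3.19-fold lower for Il1a (log2 -1.67 ± 0.36, adjusted p = 0.0184) and 1.94-fold lower for Il1b (log2 -0.95 ± 0.23, adjusted p = 0.0437). The Tnf call held in each of 14 settings. The Il1a call was lost without Trex1-KO replicate 1 or 2 or SN-011 replicate 2, at log2 values of -1.69, -1.66 and -1.52, and with DESeq2 (-1.70). The Il1b call was lost without Trex1-KO replicate 2 or SN-011 replicate 1 or 2, at -0.70, -0.82 and -1.09, and with total counts only (-0.93). The other 5 genes did not pass, with Il1rn at -0.39 ± 0.11 (adjusted p = 0.117) and Il10 at -0.56 ± 0.17 (adjusted p = 0.146).

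**Figure D3:**
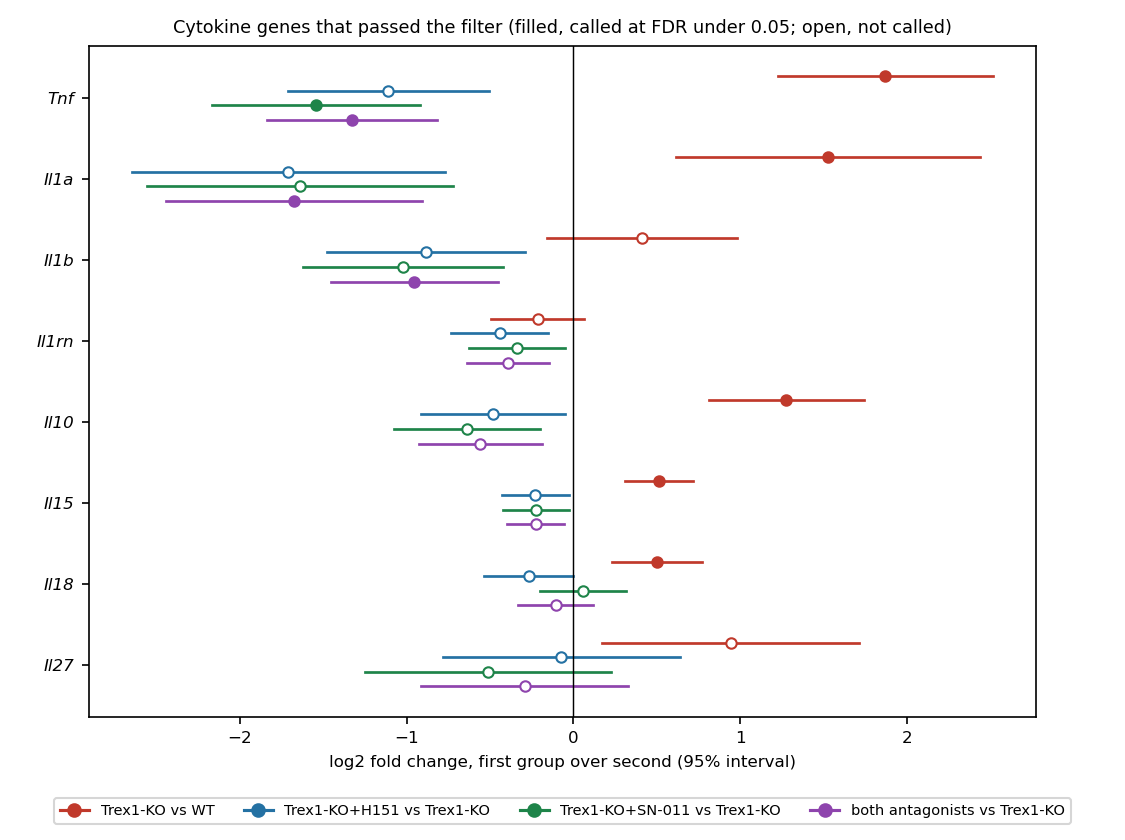
Log2 fold changes with 95% intervals for the 8 cytokine genes that passed the filter, in Trex1-KO against WT and in each antagonist, or both, against Trex1-KO; filled points are called. Tnf, Il1a, Il10, Il15 and Il18 are filled to the right of 0 against WT, and Tnf is the one gene filled to the left of 0 with a single antagonist.

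The antagonists are different compounds against the same protein, and their cells were compared directly in the 8 genes. Whether SN-011 and H151 cells were handled together is not in the labels, as given in the opening. No member was called (0 of 8, against 0.158% of all genes, all of them lower with SN-011), DESeq2 and edgeR's exact test also called 0, and 1 passed an unadjusted p under 0.05. For Tnf the log2 difference, SN-011 over H151, was -0.44 (95% interval -1.11 to 0.24), and for Il1a it was 0.07 (-1.03 to 1.17). For Il1b it was -0.14 (-0.78 to 0.50), for Il1rn 0.10 (-0.19 to 0.40), for Il10 -0.16 (-0.61 to 0.30) and for Il27 -0.44 (-1.18 to 0.30). Il15 had the narrowest interval, around a difference of 0.00 (-0.20 to 0.21). Il18 was the gene past the unadjusted threshold, at 17.7 and 18.9 CPM with H151 and 20.8 and 25.3 CPM with SN-011, which did not overlap. Its difference of 0.32 (0.06 to 0.59) had an unadjusted p of 0.0199 and an adjusted p of 0.494. The intervals reached past 1 log2 unit in Tnf, Il1a and Il27.

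Against WT, what remained under the antagonists was compared with the same 2 WT libraries. With H151, Il10 remained higher at 1.74-fold (log2 0.80 ± 0.22, adjusted p = 0.0346) and Il1rn was lower (log2 -0.66 ± 0.13, adjusted p = 0.00483), 2 of the 8 genes, against 6.79% of all genes called higher and 5.04% lower. With SN-011 the Il10 log2 fold change of 0.64 (95% interval 0.15 to 1.13) did not pass (adjusted p = 0.0945). With SN-011, Il18 was higher than WT at 1.47-fold (log2 0.56 ± 0.12, adjusted p = 0.00888) and Il1rn was lower (log2 -0.55 ± 0.13, adjusted p = 0.0127), again 2 of the 8, against 6.18% called higher and 5.57% lower. In either direction, 11.8% of all genes were called with H151 and 11.7% with SN-011. In 8 genes, 1 higher and 1 lower is not far from this background. Il1rn was thus the member lower than WT with both antagonists, and all 4 antagonist libraries, at 19.6 to 23.7 CPM, lay below both WT libraries, at 37.3 and 30.7 CPM. The Il1rn call was lost without WT replicate 1 in both comparisons, at log2 values of -0.52 with H151 and -0.42 with SN-011, and for SN-011 also without SN-011 replicate 1 (-0.52) or 2 (-0.60). Il10 with H151 lost its call without WT replicate 1, WT replicate 2 or H151 replicate 1, at 0.81, 0.76 and 0.57, and with DESeq2 (0.80), with total counts only (0.74) and with the 2 groups alone (0.80). Il18 with SN-011 lost its call without WT replicate 1 or SN-011 replicate 2, at 0.50 and 0.41.

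Tnf and Il1a did not differ from WT past the threshold under either antagonist. For Tnf the log2 fold change was 0.76 (95% interval 0.06 to 1.46) with H151 and 0.32 (-0.40 to 1.04) with SN-011. Without WT replicate 1, Tnf was called higher with both antagonists, at 1.70 and 1.26, and without WT replicate 2 it was called with neither, at 0.16 and -0.28. For Il1a it was -0.18 (-1.27 to 0.91) with H151 and -0.11 (-1.18 to 0.96) with SN-011. Without WT replicate 1 the Il1a values were 0.56 and 0.63, and without WT replicate 2 they were -0.71 and -0.64, none of them called.

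A set of genes that act with these cytokines was followed in the same fit, beginning with partner subunits and processing enzymes. Of 10 tested among 12, 7 rose in Trex1-KO against WT and none fell, against 9.27% of all genes called higher and 7.11% lower. DESeq2 called 4 of the 10, and without WT replicate 1 or 2 the quasi-likelihood test called 5 or 3. The counts without WT libraries and with DESeq2, here and in the lists that follow, were chosen after the values were seen. Casp4, which encodes the inflammatory caspase-11 and is itself interferon-inducible, was at 31.9 and 22.7 CPM in WT and 58.2 and 50.1 CPM in Trex1-KO (log2 0.99 ± 0.13, adjusted p = 0.000139). Casp1, the caspase that matures IL-1beta and IL-18, rose from 78.8 and 75.8 CPM to 121 and 110 CPM (log2 0.58 ± 0.07). Adam17, the sheddase that frees TNF from the membrane (log2 0.35), Gsdmd, the pore through which IL-1beta leaves the cell (0.26), and Ebi3, the partner of IL-27 p28 (0.37), also rose. Nlrp3 (0.24), the inflammasome sensor, and Capn2 (0.20), a calpain subunit, completed the 7. Of the exonic length, 23.4% of Ebi3 and 27.1% of Capn2 is shared with an opposite-strand gene. Casp4 and Nlrp3 fell with H151 (log2 -0.70 and -0.45) and with SN-011 (-0.84 and -0.40), 2 of 10 in each comparison, against 1.84% and 2.22% of all genes called lower, and edgeR's exact test called 4 with SN-011. The partner subunit genes Il12a and Il23a had at most 2 counts in any library and were not tested.

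Of the receptors and binding proteins, 15 of 18 were tested, and 5 rose and 1 fell in Trex1-KO, against 9.27% of all genes called higher and 7.11% lower, so that the 1 lower gene is near the background. DESeq2 called 2 of the 15, and without WT replicate 1 or 2 the quasi-likelihood test called 3 or 2. Il2rg, the common gamma chain through which IL-15 signals, was at 39.9 and 33.6 CPM in WT and 89.3 and 82.6 CPM in Trex1-KO (log2 1.23 ± 0.09, adjusted p = 5.02e-07). Of its exonic length, 30.5% is shared with the same-strand gene Gm20489, so reads in that stretch are uncertain. Il18bp, a secreted decoy that binds IL-18, was at 41.7 and 48.7 CPM in WT and 89.3 and 86.7 CPM in Trex1-KO (log2 0.96 ± 0.09, adjusted p = 7.73e-06). Il15ra, which presents IL-15 (log2 0.60), Il1rap, the shared chain of the IL-1 receptor (0.50), and Il6st, the gp130 chain (0.21), also rose. Il1r1, the signalling IL-1 receptor, fell by 0.87 on the log2 scale. With SN-011, 1 of the 15, Il2rg, fell (log2 -0.49 ± 0.09, adjusted p = 0.00718), against 2.22% of all genes called lower. With H151, against 2.23% of all genes called, 0 were called by the quasi-likelihood test, 4 passed an unadjusted p under 0.05, DESeq2 called 0 and edgeR's exact test 1. Il18bp stayed at 81.0 to 104 CPM in the 4 antagonist libraries and was called higher than WT with both.

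**Figure D4:**
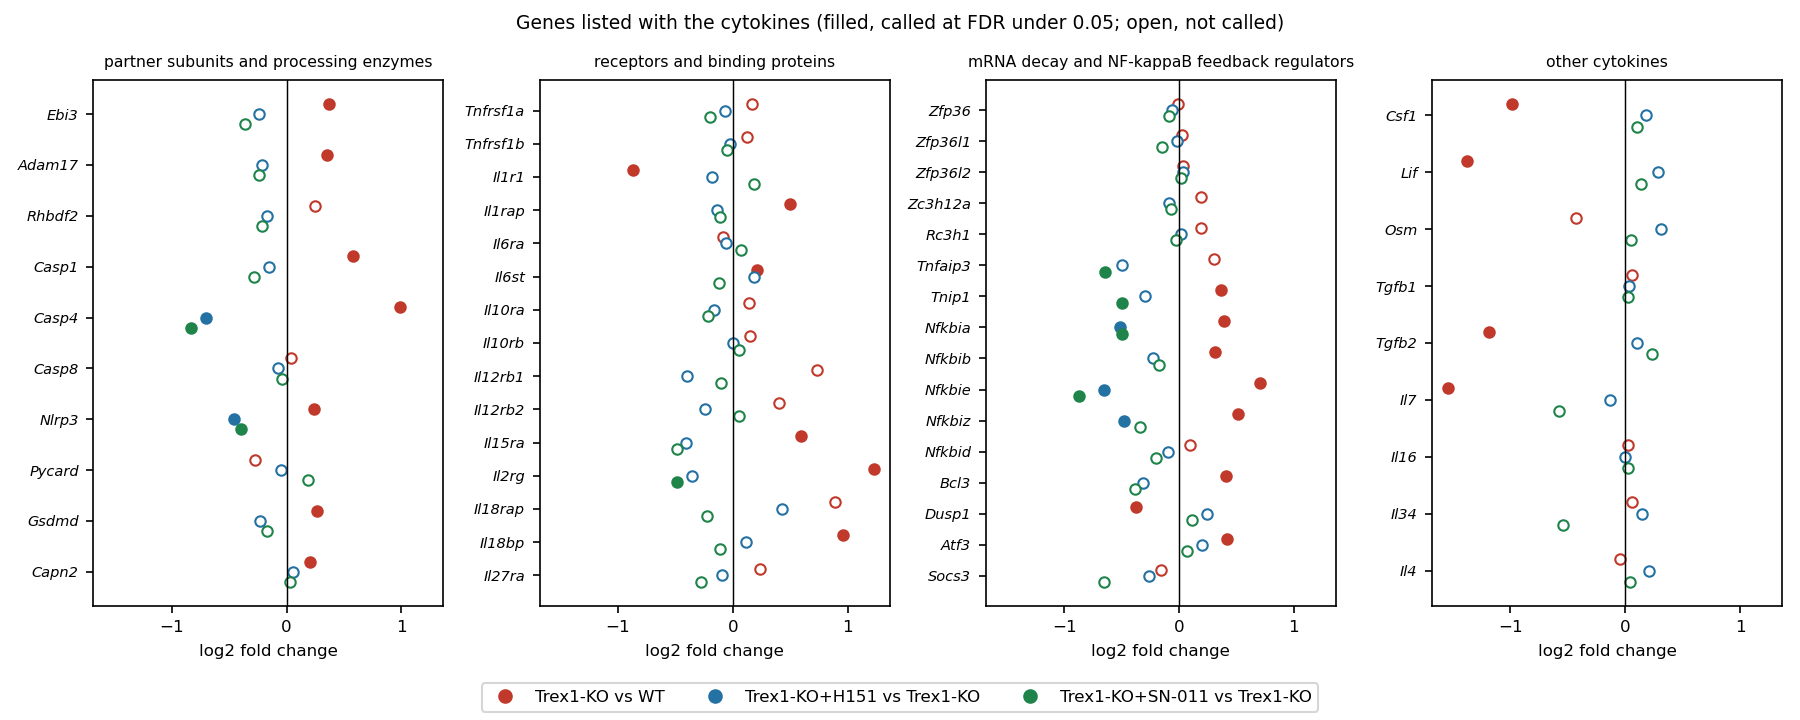
Log2 fold changes of the tested genes in 4 lists that accompany the cytokines, in Trex1-KO against WT and in each antagonist against Trex1-KO; filled points are called. Filled points against WT lie mostly to the right of 0 in the first 3 lists and to the left in the list of other cytokines, and the filled antagonist points all lie to the left.

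Regulators of cytokine mRNA decay and of NF-kappaB feedback were all tested (16 of 16), and 7 rose and 1 fell in Trex1-KO, against 9.27% of all genes called higher and 7.11% lower, so that the 1 lower gene, Dusp1, is near the background. DESeq2 called 5 of the 16, and without WT replicate 1 or 2 the quasi-likelihood test called 8 or 2. The risers with the smallest adjusted p were Atf3 (log2 0.42 ± 0.06), a repressor induced by stress, Nfkbiz (0.51 ± 0.09), a nuclear IkappaB that Il6 and Il12b need, Nfkbie (0.71 ± 0.15), a cytoplasmic IkappaB, and Tnip1 (0.36 ± 0.09), a partner of A20. Dusp1, a phosphatase that limits p38, fell by 0.38 on the log2 scale. With H151, 3 of the 16 fell, against 1.84% of all genes called lower, namely Nfkbiz (log2 -0.48), Nfkbie (-0.65) and Nfkbia (-0.51), which encodes IkappaBalpha. With SN-011, 4 of the 16 fell, against 2.22% of all genes, namely Nfkbie (-0.87), Tnip1 (-0.49), Nfkbia (-0.49) and Tnfaip3 (-0.64), which encodes A20. None of the mRNA decay factors Zfp36, Zfp36l1, Zfp36l2, Zc3h12a or Rc3h1 was called in these 3 comparisons. The SN-011 and H151 counts share the Trex1-KO libraries.

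Other cytokines differed in direction. Of 18 listed, 9 were tested, none rose in Trex1-KO and 4, Csf1, Lif, Tgfb2 and Il7, fell, against 9.27% of all genes called higher and 7.11% lower. DESeq2 called 3 of the 9, as did the quasi-likelihood test without WT replicate 1 or without WT replicate 2. Csf1, the macrophage growth factor, was at 181 and 149 CPM in WT and 86.4 and 80.7 CPM in Trex1-KO (log2 -0.98 ± 0.08, adjusted p = 2.06e-06). The same 4 genes were called lower than WT with both antagonists, against 5.04% of all genes with H151 and 5.57% with SN-011, although with H151 the count was 2 without WT replicate 2, and none of the 9 was called against Trex1-KO with either antagonist by the quasi-likelihood test, DESeq2 or edgeR's exact test (0 at an unadjusted p under 0.05). Fibroblast marker sums moved with these genes, as given above, and their part was not tested. The remaining 9, among them Csf2, Csf3, Ifng and Il17a, did not pass the filter.

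The interferon response list, chosen with earlier results of these data known, gives a scale for the antagonist differences in the same libraries. All 12 genes fell with H151 and all 12 with SN-011, at median log2 fold changes of -1.41 and -1.24, against 1.84% and 2.22% of all genes called lower. DESeq2 called 11 in each comparison. Cxcl10, a chemokine gene that both interferon and NF-kappaB drive, was at 78.2 and 58.7 CPM in Trex1-KO, at 9.78 and 16.7 CPM with H151 and at 12.2 and 12.3 CPM with SN-011. Against WT, 9 of the 12 were called higher with H151 and 11 with SN-011, against 6.79% and 6.18% of all genes. DESeq2 called 7 and 8. With H151 the count went up without WT replicate 1 and down without WT replicate 2. With SN-011 it went down without WT replicate 2.

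Across the 8 libraries the cytokine genes varied in different ways, which is described here by Pearson's r of log2 CPM with no test, since the libraries share group differences. Tnf was most like Il1a (r = 0.89) and Il10 (r = 0.83) among the members, Il15 was most like Il10 (r = 0.82) and Il18 (r = 0.82), and r was 0.03 between Tnf and Il1rn. Among 10659 or 10660 other genes, each averaging 2 or more in log2 CPM, the 3 most like Tnf were Fgr (r = 0.994), Ncoa7 (r = 0.984) and the chemokine gene Ccl5 (r = 0.980). The 3 most like Il1a were Icosl (r = 0.980), the adhesion gene Icam1 (r = 0.974) and Nadk (r = 0.973). Il10 was nearest to Kat6a (r = 0.995), Phlpp1 (r = 0.985) and Arsb (r = 0.985), and Il15 to Pggt1b (r = 0.987), Trim12a (r = 0.981) and Ms4a6b (r = 0.980). Il18 was nearest to Mpp1 (r = 0.992), Ccl3 (r = 0.973) and Slc30a5 (r = 0.970), and Il1b to Pde4dip (r = 0.952), Ppp1cb (r = 0.950) and Smim20 (r = 0.944). Il1rn was nearest to Khdrbs1 (r = 0.976), Pecr (r = 0.974) and Grsf1 (r = 0.957), and Il27 to Zdhhc18 (r = 0.962), Edc3 (r = 0.948) and Ascc1 (r = 0.942).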

How the data were processed

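Per the labels and the methods of the study, polyadenylated RNA was sequenced as paired reads of 150 bases, trimmed with Trimmomatic, aligned with HISAT2 (mm10 in the submitters' processing notes) and counted per gene by the authors. The deposited values are raw counts for 54532 Ensembl genes in 8 libraries. The methods name featureCounts and the processing notes name HTSeq as the counter, and versions are not given in the sources used here. Libraries were strand-specific according to the methods, but the strand setting of the counting is not given either. Symbols, positions and exon lengths came from GENCODE M21 (54495 identifiers matched, 37 did not).

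Genes were kept with filterByExpr (minimum count 10, minimum total 15), which left 14591 genes and 8 of the 10 cytokine genes, and all 8 libraries entered 1 quasi-likelihood fit (edgeR 4.0.16, R 4.3.3) with TMM factors (0.973 to 1.04) and 1 mean per group. Contrasts were tested two-sided, p-values were adjusted over all genes of the fit (Benjamini-Hochberg), and genes under a false discovery rate of 0.05 are said to be called, risen or fallen. Standard errors are the log2 fold change over the root of F, and 95% intervals rest on them. CPM and RPKM use TMM-scaled totals. Alternatives were other size factors, other filters, a replicate block, the 2 groups alone, single libraries left out, DESeq2 1.42.0 and edgeR's exact test. Replicates differed by more than sampling noise (chi-square per degree of freedom 3.16 to 6.28), and floors of 3 counts cover counting error only. Test code was tested on simulated data.

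Groups and replicate numbers came from the titles. The members, the accompanying lists and the markers were chosen with earlier results of these data known. Named genes are the 10 members, up to 5 called genes per list and comparison with the smallest adjusted p, and the 3 genes most correlated with each member; other list genes were named after their values were seen.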

Additional observations from a re-analysis of the deposited data

How the results depend on the processing

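The calls for Tnf, Il10 and Il15 in Trex1-KO against WT held in all 13 settings, and the fall of Tnf over both antagonists in all 14. Each group had 2 libraries, and small changes of setting moved single calls. This held for Il1a, at 7 to 41 counts per library in the groups compared, and for Il18, at 204 to 358 counts. What moved these calls was not tested. Il6 and Il12b were too sparse to test. Cytokine genes called with H151 against Trex1-KO were 0 in the main analysis, 1 with DESeq2 (Tnf), 4 with no filter on low counts (Tnf, Il1a, Il1b, Il1rn), 2 with edgeR's exact test (Tnf, Il1a) and 1 with only the 2 groups compared (Tnf). With SN-011 against Trex1-KO they were 1, and 2, 3, 3 and 3 in the same order. With H151 against WT they were 2, and 1 with DESeq2, 1 with total counts only, 4 with no filter and 1 with only the 2 groups. Il1a with H151 had no adjusted p from DESeq2, and the exact test was not run for both antagonists together. All genes called rose without the filter to 525 (H151 against Trex1-KO), 679 (SN-011 against Trex1-KO), 266 (SN-011 against H151) and 637 (both antagonists), and for SN-011 against H151 they were 23 in the main analysis, 38 with DESeq2 and 84 with the exact test. The cause was not tested. With total counts only, the share of calls that were higher went from 56.6% to 37.2% in Trex1-KO against WT, from 57.4% to 41.7% with H151 against WT and from 52.6% to 40.3% with SN-011 against WT, and the median of all genes moved by less than 0.1 on the log2 scale (-0.08 in Trex1-KO against WT). No cytokine gene changed direction under any scaling.

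Leaving out 1 library of the groups compared at a time, with the lone library of its group assumed to vary like the other groups, gave 3 to 5 cytokine genes in Trex1-KO against WT, 0 to 0 with H151 and 0 to 1 with SN-011 against Trex1-KO, 0 to 0 between antagonists, 1 to 2 with H151 and 0 to 3 with SN-011 against WT, and 1 to 4 over both antagonists. All genes called were then 1556 to 1933, 231 to 357, 131 to 302, 2 to 291, 971 to 1772, 909 to 1159 and 267 to 459 in the same order. Without WT replicate 1 or 2, which are not in these contrasts but share their fit, 1 or 2 cytokine genes were called with H151 and 2 or 2 with SN-011 against Trex1-KO. The 2 and 291 between antagonists came without SN-011 replicate 1 and without H151 replicate 2. Signs turned only for values that were not called in the main analysis. The ranges of log2 fold changes were -0.016 to 0.95 for Il1b in Trex1-KO against WT, -0.47 to 0.43 for Il27 with H151 against Trex1-KO, -0.079 to 0.19 for Il18 with SN-011 against Trex1-KO and -0.69 to 0.21 for Il27 over both antagonists. Between antagonists they were -0.45 to 0.37 for Il1a, -0.42 to 0.13 for Il1b, -0.032 to 0.24 for Il1rn, -0.37 to 0.061 for Il10 and -0.090 to 0.11 for Il15. Against WT they were -0.71 to 0.56 for Il1a and -0.90 to 0.068 for Il1b with H151, and -0.28 to 1.26 for Tnf and -0.64 to 0.63 for Il1a with SN-011.

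The titles number the libraries of each group 1 and 2, and neither the labels nor the study ties a number to 1 of its independent experiments. Deviations of same-numbered libraries correlated at 0.19 between Trex1-KO and H151 and at -0.02 to 0.06 for the other 5 pairs of groups, so the numbers were not taken to pair the libraries. With the replicate block, 3 cytokine genes were called with H151 (Tnf, Il1a, Il1rn) and 2 with SN-011 (Tnf, Il1a) against Trex1-KO, and 44 genes of all were called between antagonists.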
